A study of Mus musculus with 20 samples.

Results

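Striatal precursors were set against hippocampal precursors in a pair of mouse brain RNA libraries. The libraries were taken by their sample titles, SP and HP, and are 2 of the 20 samples of the series and 2 of its 6 polyA RNA libraries. The series compares DNA methylation and gene expression between brain regions and developmental stages, and its 14 bisulfite samples were not analysed here. Both libraries came from wild type C57BL/6 brain labelled male, which had been frozen, cut on a cryostat and microdissected before RNA extraction. The labels give no age, no sorting step and no number of animals, so each library is read as a dissected piece of tissue. The other RNA libraries, used for reference and labelled with the same strain, sex and genotype, were young hippocampal CA neurons (yCA, 1 library), young medial spiny neurons (yMSN, 1 library) and dorsal medial spiny neurons (dMSN, 2 libraries).

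The early neural tube is divided along its length into forebrain, midbrain, hindbrain and spinal cord, and each territory is marked by its own transcription factors. In the telencephalon the hippocampus forms in the dorsal part, the pallium, beside the cortical hem, a strip that secretes Wnt and Bmp signals, and the striatum forms from the ventral part, the subpallium, where Gsx2 and the Dlx genes are active. Precursors divide beside the ventricle, pass through a stage that expresses proneural factors and Notch ligands, and leave the cycle as neurons that switch on cytoskeletal genes such as Dcx. Head mesenchyme, neural crest, pigment cells and surface ectoderm lie directly around the embryonic brain.

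Gene counts totalled 31282185 in HP and 35874646 in SP. Levels are given as counts scaled to library size (CPM) after TMM scaling, with a factor of 1.11 in each of the pair, and are not corrected for gene length. Each group has 1 library, so there is no replicate error and no p-value. A log2 ratio of SP over HP is given with a 95% interval that covers counting error only. Of 11469 genes that reached 5 CPM in the higher library, 236 (2.06%) were at least 2-fold higher in SP and 103 (0.898%) at least 2-fold lower, together 2.96%. Counts of list members are over those that reached this level, unless all members in the files are named. The median log2 ratio over these genes was -0.01, with 48.2% of genes higher in SP and 51.8% lower. The only replicate pair among the RNA libraries, the 2 dMSN libraries, had 110 of 12010 genes (0.916%) at least 2-fold apart. There 99% of genes lay within 0.97 on the log2 scale, against 1.42 for SP and HP, although the dMSN libraries come from another stage and were sequenced more deeply. The sex-linked transcripts went against the label of male sex in SP and in part in HP. Ddx3y, Eif2s3y and Kdm5d, all on the Y chromosome, had 672 counts together in HP and 0 in SP, while the X-inactivation transcript Xist, made by cells with more than a single X, was at 857 CPM in HP against 1087 CPM in SP. Uty, also on the Y chromosome, had 159 and 17 counts. In yCA and yMSN Xist stood at 762 CPM and 489 CPM, but at 0.0333 CPM and 0 counts in the 2 dMSN libraries, and the 3 Y-linked genes had 0 counts in yCA too. HP thus held both Y-linked transcripts and Xist, and the labels do not say whether animals were pooled. The libraries differed in sex-linked transcripts, and sex and region cannot be told apart in this pair.

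**Figure D1:**
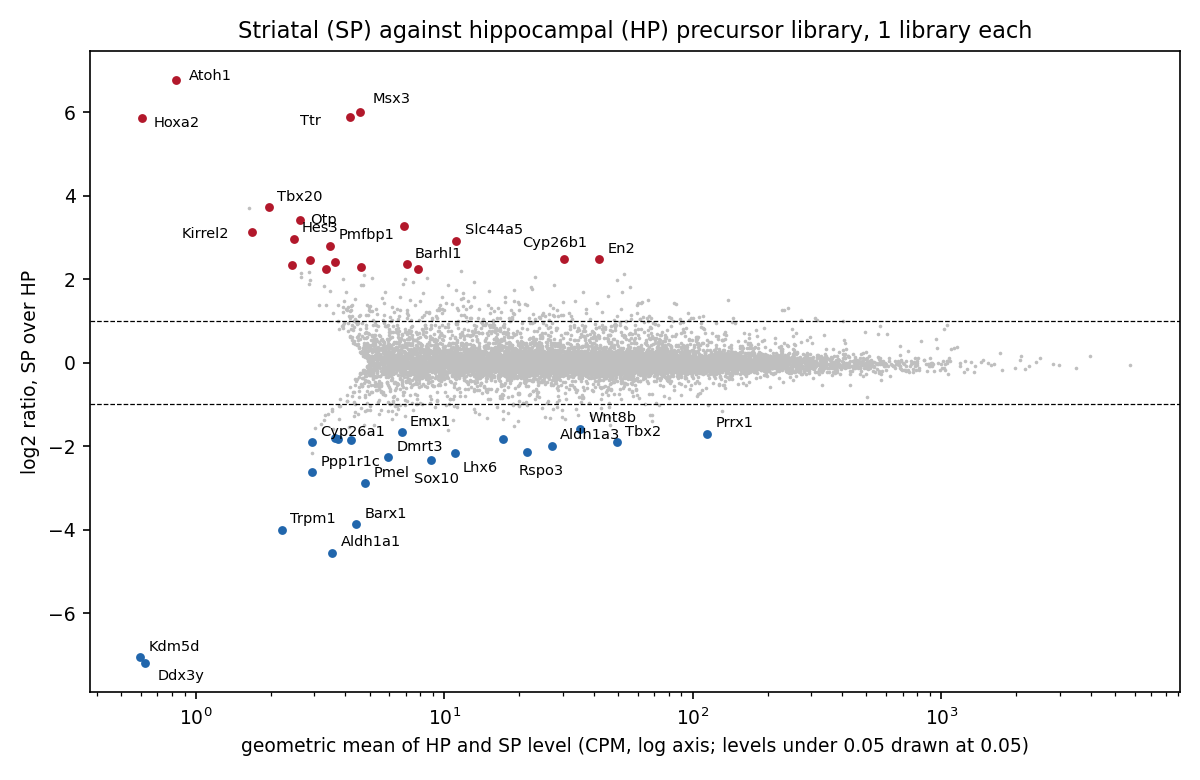
Each point is 1 gene at 5 CPM or more in the higher of SP and HP, with its geometric mean level in CPM on a log axis and its log2 ratio of SP over HP. The dashed lines mark 2-fold, coloured points are the 20 largest ratios in each direction plus Wnt8b, and most genes lie close to 0 at every level (Ddx3y and Kdm5d, with 0 counts in SP, are drawn with a prior count of 2).

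The pallial transcription factors as a group were lower in SP. Of 16 pallial progenitor factors 12 were lower and 4 higher, with 6 at least 2-fold lower and 1 at least 2-fold higher (against 0.898% and 2.06% of all genes), and the median log2 ratio was -0.57 against -0.01 over all genes. Emx1, a homeodomain factor of the cortical and hippocampal primordium, stood at 12.1 CPM in HP against 3.75 CPM in SP, a log2 ratio of -1.67 (interval -1.96 to -1.41). Its relative Emx2, which is needed for growth of the hippocampus, stood at 53.4 CPM in HP against 22.3 CPM in SP (log2 ratio -1.26). Dmrt3, a factor of the medial pallium, had the lowest ratio of the group, at 13.1 CPM in HP against 2.69 CPM in SP (log2 ratio -2.26, interval -2.60 to -1.98). Fezf2, a forebrain factor that later specifies deep cortical projection neurons, stood at 25.8 CPM in HP against 11.5 CPM in SP (log2 ratio -1.17). Dmrta1 and Tfap2c had log2 ratios of -1.19 and -1.40.

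Factors that are broadly shared by dorsal progenitors differed less. Lhx2, the selector gene that sets cortex apart from hem, stood at 137 CPM in HP against 83.6 CPM in SP (log2 ratio -0.72), and Pax6 at 92.6 CPM and 68.8 CPM (log2 ratio -0.43). The orphan nuclear receptors Nr2f1 and Nr2f2 had log2 ratios of 0.23 and -0.04. The members with the highest ratios were proneural or neuronal factors. Neurog2, which drives glutamatergic neurogenesis, stood at 32.8 CPM in HP against 50.2 CPM in SP (log2 ratio 0.61), and Bhlhe22, a factor of differentiating neurons, at 4.77 CPM and 13.3 CPM (log2 ratio 1.47). Among 11 genes of pallial glutamatergic neurons, 7 were lower in SP and 4 higher. Past 2-fold, 0 were lower and 1, Lhx9, was higher (against 0.898% and 2.06% of all genes). Tbr1, a factor of early-born cortical neurons, stood at 17.0 CPM in HP against 10.8 CPM in SP (log2 ratio -0.66), and the vesicular glutamate transporter gene Slc17a6 at 18.3 CPM and 28.1 CPM (log2 ratio 0.62).

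Signals of the cortical hem were mostly higher in HP or at nearly the same level, and a few were higher in SP. Of 20 hem and dorsal midline genes 16 were lower in SP, with a median log2 ratio of -0.23. Past 2-fold, 5 were lower and 0 higher (against 0.898% and 2.06% of all genes). Wnt8b, a Wnt ligand of the medial pallium and hem, measured 61.0 CPM in HP against 20.4 CPM in SP, a log2 ratio of -1.58 (interval -1.70 to -1.46). The R-spondins amplify Wnt signals at the receptor. Rspo3 stood at 45.2 CPM in HP against 10.2 CPM in SP (log2 ratio -2.14), Rspo2 at 49.3 CPM and 19.1 CPM (log2 ratio -1.36), and Rspo1 at 44.3 CPM and 20.03 CPM (log2 ratio -1.14). Bmp4, a dorsal midline ligand, stood at 19.4 CPM in HP against 8.89 CPM in SP (log2 ratio -1.12). Other members of the same families were close to even. Wnt3a, the hem ligand needed for hippocampal growth, stood at 6.86 CPM in HP against 8.48 CPM in SP (log2 ratio 0.30, interval 0.06 to 0.55), Wnt2b had a log2 ratio of 0.06 and Axin2, a common target of Wnt signalling, one of -0.12. Lmx1a, a roof plate and hem factor, was higher in SP, at 11.2 CPM in HP against 20.8 CPM in SP (log2 ratio 0.89). Gdf7, below 5 CPM in both, had 18 counts in HP and 102 in SP (log2 ratio 2.20, interval 1.58 to 3.12). Over all 21 members in the files, 5 were higher and 16 lower in SP.

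Later hippocampal genes did not follow the progenitor factors. Of 11 hippocampal field genes 7 were higher in SP and 4 lower, with a median log2 ratio of 0.06. Prox1, which specifies dentate granule cells but is also expressed in many other embryonic neurons, stood at 18.8 CPM in HP against 40.5 CPM in SP (log2 ratio 1.11, interval 0.98 to 1.24). Zbtb20, a repressor that sets hippocampal field identity, stood at 22.9 CPM in HP against 45.5 CPM in SP (log2 ratio 0.99). Of 7 Cajal-Retzius genes, known from the earliest neurons of the cortical surface, 6 were higher in SP and 1, Trp73, was lower (log2 ratio -1.15). Reln, the glycoprotein that these neurons secrete, stood at 18.4 CPM in HP against 19.8 CPM in SP (log2 ratio 0.11, interval -0.05 to 0.26). The largest ratios of that list belonged to Lhx1 (log2 ratio 1.76) and Nhlh2 (log2 ratio 1.51), which are also active in neurons outside the cortex.

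The subpallial patterning factors did not stand higher as a group in SP, the library labelled striatal. Of 17 subpallial progenitor genes 10 were lower in SP and 7 higher, near the even split of all genes, with a median log2 ratio of -0.12. Past 2-fold, 3 were higher and 1 lower (against 2.06% and 0.898% of all genes). Dlx1, a homeodomain factor of GABAergic precursors, stood at 35.3 CPM in HP against 28.5 CPM in SP (log2 ratio -0.31, interval -0.43 to -0.19). Dlx2 stood at 28.6 CPM in HP against 16.8 CPM in SP (log2 ratio -0.77), and Dlx5 at 9.10 CPM and 4.43 CPM (log2 ratio -1.03). Gsx2, the factor that defines the lateral ganglionic eminence, stood below 5 CPM in both, at 4.08 CPM in HP against 2.59 CPM in SP (log2 ratio -0.64, interval -1.03 to -0.28). The Dlx genes and Gsx2 were thus on the HP side. The differences for Dlx1, Dlx2 and Gsx2 lay within the 0.97 that spans 99% of genes between replicate dMSN libraries. That spread is over genes at 5 CPM, which Gsx2 did not reach. The same limit holds for every other gene named here with a smaller ratio than 0.97, in either direction.

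The 3 subpallial members at least 2-fold higher in SP were Sp9, Gsx1 and Nkx6-2. Gsx1, active in ventral forebrain and dorsal hindbrain, stood at 3.24 CPM in HP against 7.75 CPM in SP (log2 ratio 1.24), and Nkx6-2, a ventral neural tube factor, at 7.84 CPM and 17.3 CPM (log2 ratio 1.14). Sp9, a zinc finger factor of striatal precursors, stood at 3.88 CPM in HP against 9.82 CPM in SP (log2 ratio 1.33, interval 1.05 to 1.63). Gad1 and Gad2, the enzymes of GABA synthesis, had log2 ratios of 0.80 and 0.52.

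Transcription factors of striatal neurons were mostly near even, while several genes of their mature function were low and higher in SP. Of 15 striatal neuron genes 9 were lower and 6 higher in SP, with a median log2 ratio of -0.08. Past 2-fold, 1 was higher and 1 lower (against 2.06% and 0.898% of all genes). The lower one was the factor Rarb, at 41.2 CPM in HP against 19.7 CPM in SP (log2 ratio -1.06, interval -1.19 to -0.94). Foxp1, a forkhead factor of medium spiny neurons, stood at 104 CPM in HP against 93.9 CPM in SP (log2 ratio -0.15), and Bcl11b, which those neurons need to mature, at 47.9 CPM and 27.0 CPM (log2 ratio -0.83). Meis2 and Ebf1, both active in striatal precursors and elsewhere, had log2 ratios of 0.53 and 0.69. Penk, the enkephalin precursor, was the only member at 5 CPM that was at least 2-fold higher in SP, at 2.47 CPM in HP against 9.01 CPM in SP (log2 ratio 1.85, interval 1.52 to 2.22). It reached 1743 CPM and 1834 CPM in the 2 dMSN libraries. Ppp1r1b, which encodes the striatal phosphoprotein DARPP-32, stood at 0.201 CPM in HP against 0.780 CPM in SP, with 7 and 31 counts (log2 ratio 1.71, interval 0.75 to 3.38). The dopamine receptor genes Drd2 and Drd1a had 15 and 6 counts in HP against 72 and 25 in SP (log2 ratios 1.95 and 1.60), with intervals of 1.26 to 2.98 and 0.55 to 3.44. Pdyn, the dynorphin precursor, had 6 and 19 counts (log2 ratio 1.24, interval 0.09 to 3.09). Adora2a, the adenosine receptor gene, was even (log2 ratio -0.01), and Tac1, the substance P precursor, had 42 and 34 counts (log2 ratio -0.47, interval -1.19 to 0.19). Over all 24 members in the files, 11 were higher and 13 lower in SP.

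Genes of the medial ganglionic eminence, the source of cortical interneurons, went both ways. Lhx6, the factor of those interneurons, stood at 23.3 CPM in HP against 5.19 CPM in SP (log2 ratio -2.16, interval -2.40 to -1.95), and Sst, their peptide somatostatin, at 14.8 CPM and 5.26 CPM (log2 ratio -1.48). Nkx2-1, which acts upstream of Lhx6 in that eminence and is also a hypothalamic gene, was higher in SP, at 26.6 CPM in HP against 37.1 CPM in SP (log2 ratio 0.48). Factors of both pallium and subpallium were thus detected in each library. Of 8 forebrain identity factors 6 were lower in SP, with a median log2 ratio of -0.73. Otx2, shared by forebrain and midbrain, was an exception at 103 CPM in HP against 112 CPM in SP (log2 ratio 0.13).

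**Figure D2:**
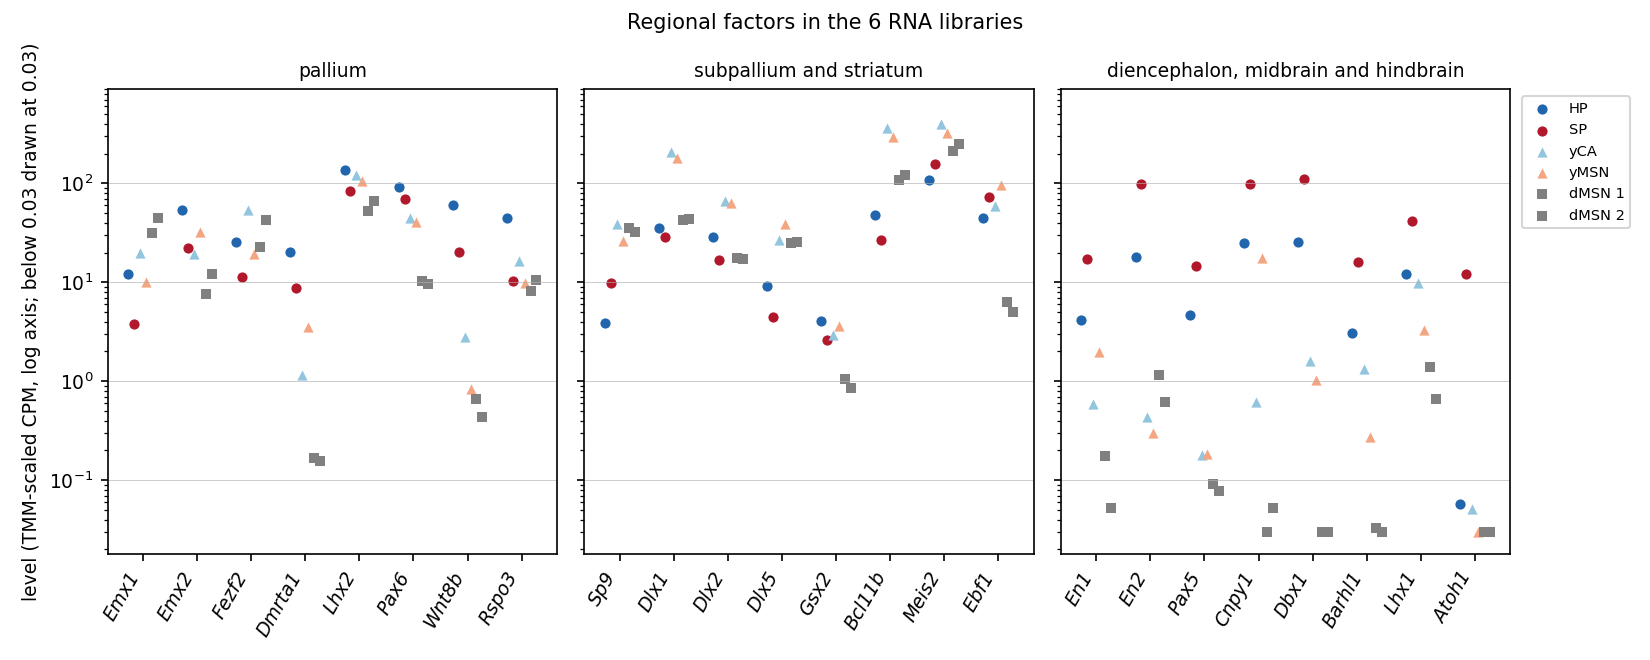
Points give the TMM-scaled CPM, on a log axis, of 24 regional factors in each of the 6 RNA libraries, with values under 0.03 CPM drawn at 0.03. HP lies above SP for every pallial factor shown and for Dlx1, Dlx2, Dlx5, Gsx2 and Bcl11b, and SP lies above HP for all 8 factors of diencephalon, midbrain and hindbrain.

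Transcription factors of regions behind the telencephalon were higher in SP. Among 16 diencephalic factors 13 were higher in SP and 3 lower, with a median log2 ratio of 1.32. Past 2-fold, 9 were higher and 0 lower (against 2.06% and 0.898% of all genes). Dbx1, a factor of progenitors in the diencephalon and along the neural tube, stood at 25.4 CPM in HP against 111 CPM in SP (log2 ratio 2.13, interval 2.02 to 2.23). Otp and Sim1 specify neuroendocrine neurons of the hypothalamus. Otp stood at 0.775 CPM in HP against 8.81 CPM in SP (log2 ratio 3.42), and Sim1 at 6.20 CPM and 16.7 CPM (log2 ratio 1.42). Barhl1 and Irx1, factors of the posterior diencephalon and of more caudal neurons, had log2 ratios of 2.35 and 1.80. Nkx2-4, a ventral forebrain relative of Nkx2-1, had 0 counts in HP and 193 in SP, at least 56.4-fold higher with a floor of 3 counts in HP. Tcf7l2 and Pou4f1, which mark thalamus and habenula, were slightly lower in SP (log2 ratios -0.23 and -0.21).

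The midbrain and isthmus genes showed the same direction for most transcription factors but not for the Fgf ligands of the isthmus. Of 21 members 16 were higher in SP and 5 lower, with a median log2 ratio of 0.92. Past 2-fold, 8 were higher and 0 lower (against 2.06% and 0.898% of all genes). En2, a homeodomain factor of midbrain and anterior hindbrain, stood at 17.8 CPM in HP against 98.7 CPM in SP (log2 ratio 2.47, interval 2.35 to 2.59), and at 0.299 to 1.15 CPM in the 4 other RNA libraries. En1 stood at 4.19 CPM in HP against 17.3 CPM in SP (log2 ratio 2.03). Cnpy1, which is active at the midbrain and hindbrain boundary, stood at 25.01 CPM in HP against 99.01 CPM in SP (log2 ratio 1.98). Pax5 and Wnt1, early genes of that boundary, had log2 ratios of 1.66 and 1.42, and Pax8 one of 2.04. Fgf8 itself, the ligand of the isthmic organizer and also of the anterior forebrain, was lower in SP, at 12.1 CPM in HP against 6.52 CPM in SP (log2 ratio -0.88, interval -1.12 to -0.66), and Fgf17 had a log2 ratio of -0.35. En2, En1 and Cnpy1 were thus detected in HP too, at lower levels.

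Hindbrain and rhombic lip factors were mostly higher in SP, and Atoh1 had the highest ratio among genes at 5 CPM. Of 14 members 11 were higher in SP and 3 lower, with a median log2 ratio of 1.34. Past 2-fold, 7 were higher and 0 lower (against 2.06% and 0.898% of all genes). Atoh1, the proneural factor of the rhombic lip, had 2 counts in HP and 480 in SP, or 0.0574 and 12.1 CPM, a ratio of 210.4 with a counting interval of 57.9 to 1742. Tbx20, a T-box factor of cranial motor neurons, stood at 0.517 CPM in HP against 7.53 CPM in SP (log2 ratio 3.73). Evx2 and Lhx1, factors of hindbrain and spinal interneurons, had log2 ratios of 2.34 and 1.76. Lbx1, a factor of dorsal hindbrain and spinal neurons, had 0 counts in HP and 132 in SP, at least 38.6-fold higher with the same floor. The lists share members (Barhl1, Olig3 and Lmx1b stand in more than 1), so their counts are not separate observations.

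Hox genes, which are silent in forebrain and midbrain and active from the hindbrain backwards, gave a further measure. The 39 Hox symbols together had 26 counts in HP and 575 in SP, or 0.746 CPM and 14.5 CPM, and 0 of them reached 1 CPM in HP against 3 in SP. Those 3 were Hoxa2, Hoxb1 and Hoxb2, of the anterior hindbrain. Hoxa2 had 2 counts in HP and 253 in SP, a ratio of 111 with an interval of 30.4 to 920.8, and Hoxb1 had 0 and 145 counts. Hoxa3 and Hoxb3, whose domains begin further back, each stood at 0.730 CPM in SP. In dissected tissue, more cells of a type and more transcript per cell cannot be told apart.

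**Figure D3:**
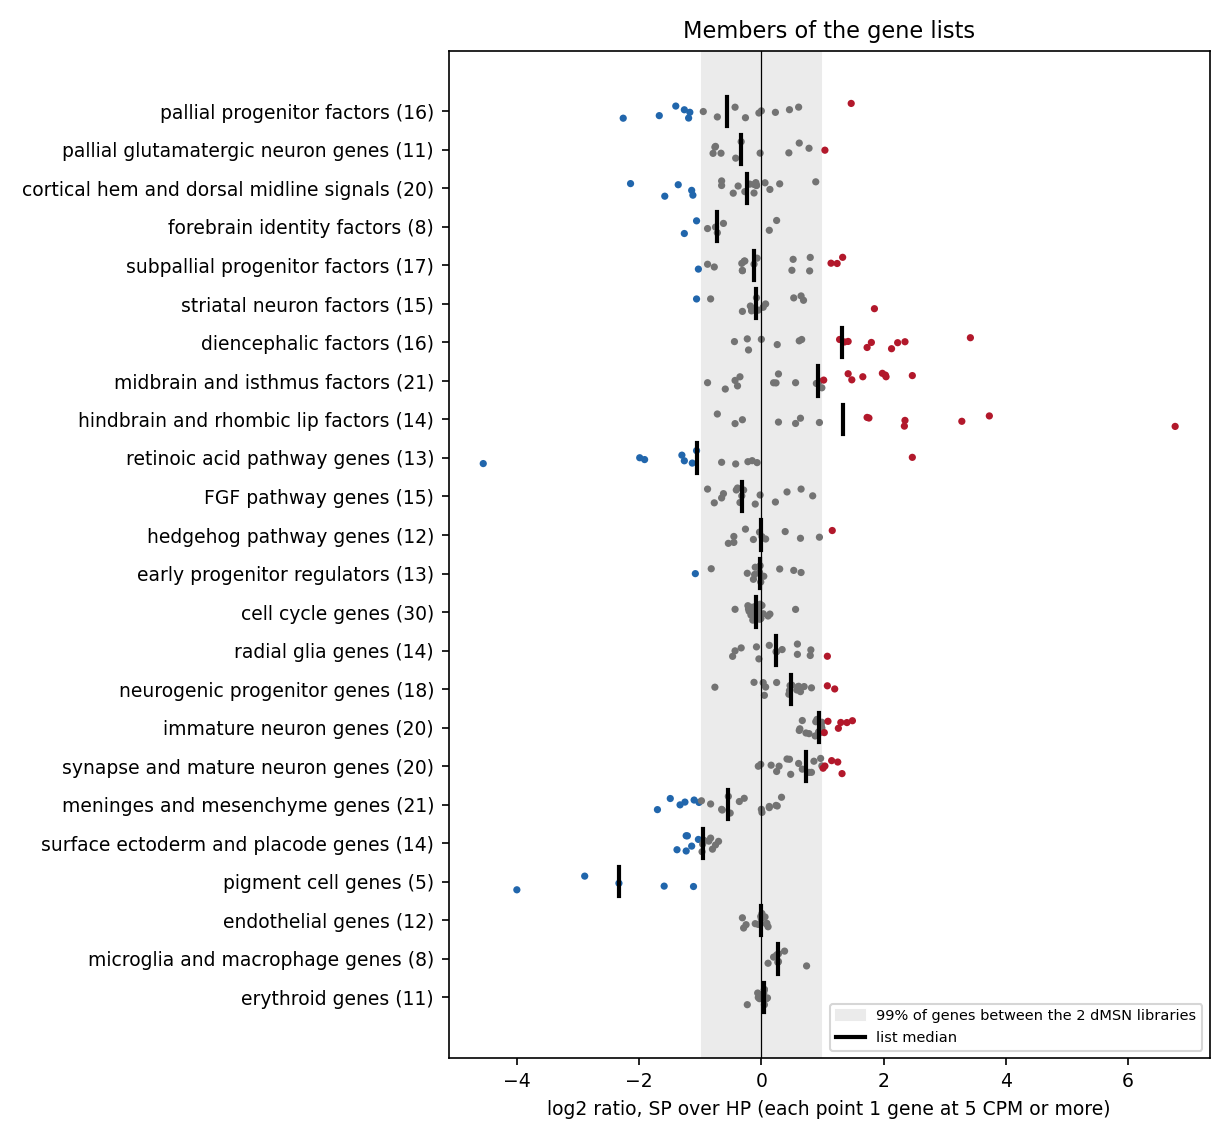
Each point is the log2 ratio of SP over HP for 1 gene at 5 CPM or more, grouped in 24 gene lists with the number of genes in parentheses, and black bars are list medians. The grey band holds 99% of genes between the 2 dMSN libraries, points beyond 2-fold are coloured, and the diencephalic, midbrain and hindbrain lists reach to the right while pigment, retinoic acid and surface ectoderm lists reach to the left.

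Genes of the retinoic acid pathway were lower in SP at the steps of synthesis, uptake and response, and 1 of degradation was higher. Retinoic acid is made from vitamin A by retinaldehyde dehydrogenases, acts through nuclear receptors and is removed by Cyp26 enzymes. Of 13 members 12 were lower and 1 higher in SP, with a median log2 ratio of -1.06. Past 2-fold, 7 were lower and 1 higher (against 0.898% and 2.06% of all genes). Aldh1a3, a retinaldehyde dehydrogenase of nasal and eye primordia, stood at 54.0 CPM in HP against 13.6 CPM in SP (log2 ratio -1.99). Aldh1a1, the dehydrogenase of dorsal retina, stood at 17.8 CPM in HP against 0.705 CPM in SP (log2 ratio -4.55, interval -5.26 to -4.11). Aldh1a2, the main enzyme of embryonic mesoderm and meninges, was below 5 CPM, at 3.65 CPM and 1.18 CPM (log2 ratio -1.58). Stra6, the receptor that brings in retinol, stood at 60.4 CPM in HP against 25.2 CPM in SP (log2 ratio -1.26).

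The inducible genes and some of the receptors went the same way. Rarb, a receptor gene that retinoic acid itself induces, stood at 41.2 CPM in HP against 19.7 CPM in SP (log2 ratio -1.06), and Rarg at 72.6 CPM and 29.4 CPM (log2 ratio -1.30). Of the other receptor genes, Rara had a log2 ratio of -0.42. Rxra was nearly even, at 98.9 CPM in HP against 94.5 CPM in SP (log2 ratio -0.07). Rxrg, below 5 CPM in both, had a log2 ratio of -0.41 (interval -0.91 to 0.06). Dhrs3, a retinaldehyde reductase, had a log2 ratio of -1.13. Cyp26a1, a degrading enzyme that is itself induced by retinoic acid, stood at 5.74 CPM in HP against 1.49 CPM in SP (log2 ratio -1.91). Cyp26b1, the degrading enzyme of hindbrain and other sites, was the exception, at 12.8 CPM in HP against 71.5 CPM in SP (log2 ratio 2.47, interval 2.33 to 2.62). The binding protein genes Crabp1 and Crabp2 differed little (log2 ratios -0.22 and -0.15).

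Of the 14 pathway genes with an entry in the RefSeq promoter table (build GRCm38.p6, 250 bases before to 50 after each gene's start), the direct repeat of a retinoic acid response element (GTTCA, then any 5 bases, then AGTTCA) occurred on either strand in the promoters of Rarb and Cyp26a1. It occurred in 11 of 27025 genes of the table, 0.0407%. Only this spelling, that of the Rarb repeat printed below, was searched, so the share is no test of the pathway genes. The lines below give the 100 bases before the start of these genes, 5′ to 3′ on the gene's strand, to show where the repeat stands in a pair of genes that were both lower in SP. Capitals mark the repeat, which in Cyp26a1 is on the opposite strand. The Rarb window is chr14:16575477-16575576 on the minus strand and the Cyp26a1 window chr19:37697708-37697807 on the plus strand.
Rarb: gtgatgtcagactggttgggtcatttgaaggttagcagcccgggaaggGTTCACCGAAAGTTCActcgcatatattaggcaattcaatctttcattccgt
Cyp26a1: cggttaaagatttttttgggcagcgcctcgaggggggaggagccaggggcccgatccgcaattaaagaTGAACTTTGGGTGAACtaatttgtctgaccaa
The repeat began 52 bases before the start of Rarb and 32 bases before the start of Cyp26a1. These are matches of letters and no binding was measured.

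Hedgehog and Fgf pathways differed less than retinoic acid genes. Of 12 hedgehog genes 6 were higher and 6 lower in SP, with a median log2 ratio of -0.01. Shh, the ventral midline ligand, stood at 17.6 CPM in HP against 39.4 CPM in SP (log2 ratio 1.16, interval 1.02 to 1.30). It was the only member past 2-fold (against 2.96% of all genes). Its target and receptor Ptch1 had a log2 ratio of 0.39, and the target Gli1 one of -0.45. Of 15 Fgf pathway genes 11 were lower in SP, 0 were past 2-fold (against 2.96% of all genes) and the median log2 ratio was -0.32. Among genes that Fgf signals induce, Dusp6 stood at 117 CPM in HP against 68.2 CPM in SP (log2 ratio -0.77), Etv4 and Etv5 had log2 ratios of -0.65 and -0.62, and Spry2 one of -0.02. The receptor gene Fgfr3 was higher in SP (log2 ratio 0.84).

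Genes of neurons were higher in SP and genes of the cell cycle were nearly even. All 20 immature neuron genes in the files were higher in SP, each with a counting interval above 0 (26.5% of all genes), and 6 were at least 2-fold higher (against 2.06% of all genes). Their log2 ratios ran from 0.62 to 1.49 with a median of 0.95, just inside the 0.97 that spans 99% of genes between the dMSN libraries. Dcx, a microtubule protein of migrating neurons, stood at 155 CPM in HP against 381 CPM in SP (log2 ratio 1.30, interval 1.25 to 1.34). Ina, an intermediate filament of young neurons, stood at 82.5 CPM in HP against 232 CPM in SP (log2 ratio 1.49), and the neurofilament genes Nefl and Nefm had log2 ratios of 1.40 and 1.26. Tubb3, the neuronal tubulin, stood at 382 CPM in HP against 634 CPM in SP (log2 ratio 0.73). In yCA and yMSN, Dcx stood at 2102 CPM and 1168 CPM, so both precursor libraries lay well below the young ones for this gene. Of 20 synapse and mature neuron genes 18 were higher in SP, 5 at least 2-fold (against 2.06% of all genes), with a median log2 ratio of 0.73. Among them Gria2, a glutamate receptor subunit, stood at 4.77 CPM in HP against 10.6 CPM in SP (log2 ratio 1.15).

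The genes of the step before were shifted in the same direction by less. Of 18 neurogenic progenitor genes 16 were higher in SP, 2 of them at least 2-fold (against 2.06% of all genes), with a median log2 ratio of 0.49. Dll3, a Notch ligand relative of newborn neurons, stood at 21.0 CPM in HP against 48.4 CPM in SP (log2 ratio 1.20), and the ligand gene Dll1 at 70.5 CPM and 115 CPM (log2 ratio 0.70). Neurod4 and Insm1, factors of cells leaving the cycle, had log2 ratios of 1.08 and 0.82. Eomes, the factor of pallial intermediate progenitors, was lower in SP, at 28.8 CPM in HP against 17.0 CPM in SP (log2 ratio -0.76).

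Cell cycle genes differed little. All 30 cell cycle genes lay within 2-fold, but only 2.96% of all genes were past it. Of the 30, 25 were lower and 5 higher in SP (against 51.8% and 48.2% of all genes), with a median log2 ratio of -0.09. Mki67, a marker of cycling cells, stood at 757 CPM in HP against 817 CPM in SP (log2 ratio 0.11), and Ccnd2, a cyclin of neural progenitors, had the highest ratio of the list, at 781 CPM and 1153 CPM (log2 ratio 0.56). Of 14 radial glia genes 9 were higher in SP and 1, Fabp7, at least 2-fold (against 2.06% of all genes). Fabp7, a lipid carrier of radial glia, stood at 100.1 CPM in HP against 212 CPM in SP (log2 ratio 1.08), Nes, their intermediate filament, at 775 CPM and 1352 CPM (log2 ratio 0.80), and Hes5, a Notch target, at 32.4 CPM and 56.8 CPM (log2 ratio 0.81). The related Notch target Hes1 was lower in SP (log2 ratio -0.47).

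Regulators that keep early precursors from advancing, and that are lost as development goes on, were near even at the middle of their list and spread to both sides. The median log2 ratio of 13 such genes was -0.03. Lin28b, an inhibitor of let-7 processing, stood at 89.1 CPM in HP against 87.1 CPM in SP (log2 ratio -0.03, interval -0.10 to 0.04), and the let-7 target Trim71 had a log2 ratio of -0.02. Hmga2, a chromatin protein of early neural stem cells, stood at 667 CPM in HP against 378 CPM in SP (log2 ratio -0.82), and Dusp9, a phosphatase of early embryonic cells, at 62.4 CPM and 29.5 CPM (log2 ratio -1.08). Lin28a was higher in SP, at 33.8 CPM in HP against 48.9 CPM in SP (log2 ratio 0.53). Lin28a was at 0.0345 to 0.506 CPM in the 4 other RNA libraries. Of 10 late progenitor and gliogenic genes 9 were lower in SP, with a median log2 ratio of -0.19, and Nfib, a factor of the later switch to glia, stood at 40.3 CPM in HP against 31.2 CPM in SP (log2 ratio -0.37). Hindbrain and midbrain factors were higher in the same library as the neuron genes, and the part of either in the other was not tested.

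**Figure D4:**
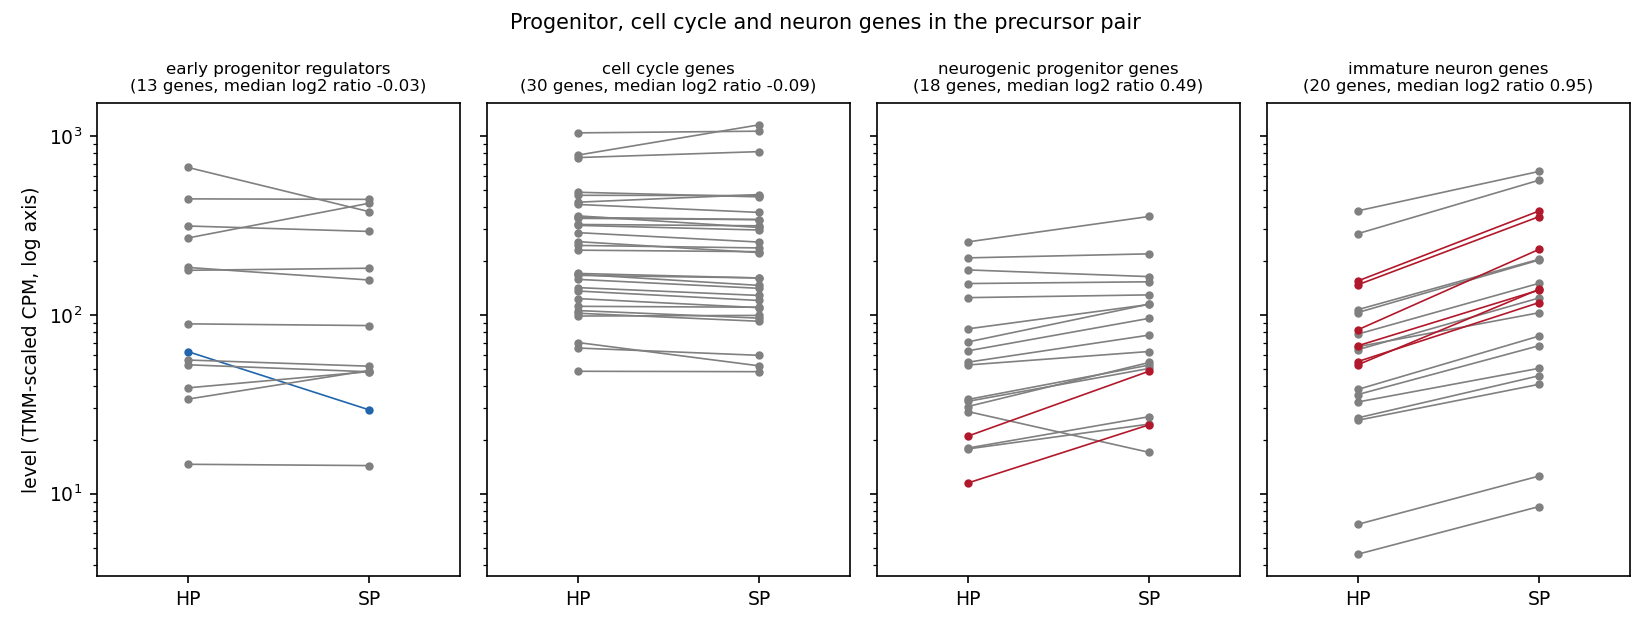
Lines join the TMM-scaled CPM of each gene in HP and SP, on a log axis, for early progenitor regulators, cell cycle, neurogenic progenitor and immature neuron genes, with genes past 2-fold in colour. Immature neuron lines all climb from HP to SP, while the 30 cell cycle lines stay nearly level.

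Genes of pigment cells were lower in SP. Of all 12 pigment cell genes in the files 10 were lower and 2 higher, 9 with a counting interval below 0, and they summed to 62.1 CPM in HP against 14.1 CPM in SP. The 5 members that reached 5 CPM did so in HP alone, so their lower level in SP follows in part from that filter. Pmel, the fibril protein of melanosomes, stood at 13.2 CPM in HP against 1.74 CPM in SP, with 460 and 69 counts (log2 ratio -2.89, interval -3.31 to -2.56). Trpm1, a channel of melanocytes and retina, stood at 9.27 CPM in HP against 0.529 CPM in SP, 17.5-fold lower (interval 11.3 to 28.7). Mitf, the master factor of pigment cells, and Dct, an enzyme of melanin synthesis, had log2 ratios of -1.11 and -1.59. The melanin enzymes Tyr and Tyrp1 were below 5 CPM. Tyr stood at 3.24 CPM in HP against 0.730 CPM in SP, with 113 and 29 counts, and Tyrp1 had 56 counts in HP and 2 in SP. The retinal pigment epithelium genes Rpe65 and Rgr had 0 counts in both libraries.

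Mitf binds the M-box, TCATGTG, and the promoters of the pigment genes with large ratios are shown for this letter string. It occurred on either strand in 5 of the 7 list members with an entry in the same RefSeq table (Tyr, Tyrp1, Dct, Trpm1 and Slc24a5) and in 4.31% of its 27025 genes. The string was chosen for the pigment genes beforehand, so these shares are no test of the list. They are matches of letters and no binding was measured. Windows of 100 bases are printed 5′ to 3′ on the gene's strand, with the M-box in capitals.
Tyr: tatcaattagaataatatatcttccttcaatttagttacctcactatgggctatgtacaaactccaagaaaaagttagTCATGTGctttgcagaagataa
Tyrp1: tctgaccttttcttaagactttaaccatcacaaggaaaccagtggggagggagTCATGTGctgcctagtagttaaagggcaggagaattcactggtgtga
Trpm1: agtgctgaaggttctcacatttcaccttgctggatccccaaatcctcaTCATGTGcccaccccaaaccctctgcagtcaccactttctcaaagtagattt
The Tyr window is chr7:87493513-87493612 on the minus strand, the Tyrp1 window chr4:80834113-80834212 on the plus strand and the Trpm1 window chr7:64153645-64153744 on the plus strand. The M-box began 22 bases before the start of Tyr, 47 before that of Tyrp1 and 142 before that of Trpm1. Slc24a5 has the string too, yet stood at 1.81 CPM in HP against 1.99 CPM in SP (log2 ratio 0.13).

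Surface ectoderm and head mesenchyme were also lower in SP. All 18 surface ectoderm and placode genes in the files were lower, 17 with a counting interval below 0. Of the 14 at 5 CPM, 6 were at least 2-fold lower (against 0.898% of all genes), with log2 ratios from -1.38 to -0.70 and a median of -0.96, and the list summed to 470.4 CPM in HP against 234 CPM in SP. Trp63, the factor of stratified epithelium, stood at 17.5 CPM in HP against 6.67 CPM in SP (log2 ratio -1.38). Eya1, a cofactor of sensory placodes, stood at 53.3 CPM in HP against 27.4 CPM in SP (log2 ratio -0.96). The adhesion gene Epcam had a log2 ratio of -1.03. Epithelial genes were thus detected in both libraries, at higher levels in HP.

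Within mesenchyme the largest differences were in transcription factors of the face. Of 21 meninges and mesenchyme genes 14 were lower in SP and 7 higher, with a median log2 ratio of -0.54. Past 2-fold, 6 were lower and 0 higher (against 0.898% and 2.06% of all genes). The 22 members in the files summed to 3282 CPM in HP and 2712 CPM in SP. Prrx1, a factor of head and limb mesenchyme, stood at 206 CPM in HP against 63.6 CPM in SP (log2 ratio -1.70, interval -1.76 to -1.63). Alx1, needed for the mesenchyme around the eye and nose, stood at 77.9 CPM in HP against 27.6 CPM in SP (log2 ratio -1.49), Alx4 at 164 CPM and 80.8 CPM (log2 ratio -1.02) and Twist1 at 104 CPM and 43.5 CPM (log2 ratio -1.25). Some matrix genes of the list, picked out after their values were seen, were closer to even, with Col1a2 at a log2 ratio of -0.28, Col3a1 at 789 CPM in HP against 792 CPM in SP (log2 ratio 0.00) and Col1a1 at 204 CPM and 257 CPM (log2 ratio 0.33). Postn, another matrix gene, was lower in SP, at 24.2 CPM in HP against 13.6 CPM in SP (log2 ratio -0.83, interval -0.99 to -0.68). Foxc1, a factor of meninges, had a log2 ratio of -0.36. Col2a1, the collagen of cartilage and notochord, stood at 546 CPM in HP against 451 CPM in SP.

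Neural crest genes were mixed. Sox10, of migrating crest, glia and pigment cells, stood at 19.9 CPM in HP against 3.90 CPM in SP (log2 ratio -2.33, interval -2.61 to -2.10), and Erbb3, a receptor of crest and Schwann cell precursors, at 27.5 CPM and 10.8 CPM (log2 ratio -1.34). Tfap2b, another crest factor, was even, at 74.5 CPM in HP against 76.2 CPM in SP (log2 ratio 0.03). In the choroid plexus list, named for the tissue that makes cerebrospinal fluid, 2 of 7 genes were at least 2-fold higher in SP (against 2.06% of all genes). Ttr, the thyroid hormone carrier of that tissue, had 18 counts in HP and 1339 in SP, or 0.517 and 33.7 CPM (log2 ratio 5.89), and Slc4a5, a bicarbonate transporter gene, had a log2 ratio of 1.25. Kcne2, below 5 CPM, had 2 and 94 counts. Folr1, the folate receptor gene of the plexus, was nearly even at 2.61 CPM in HP against 2.95 CPM in SP, and the list median was 0.13.

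**Figure D5:**
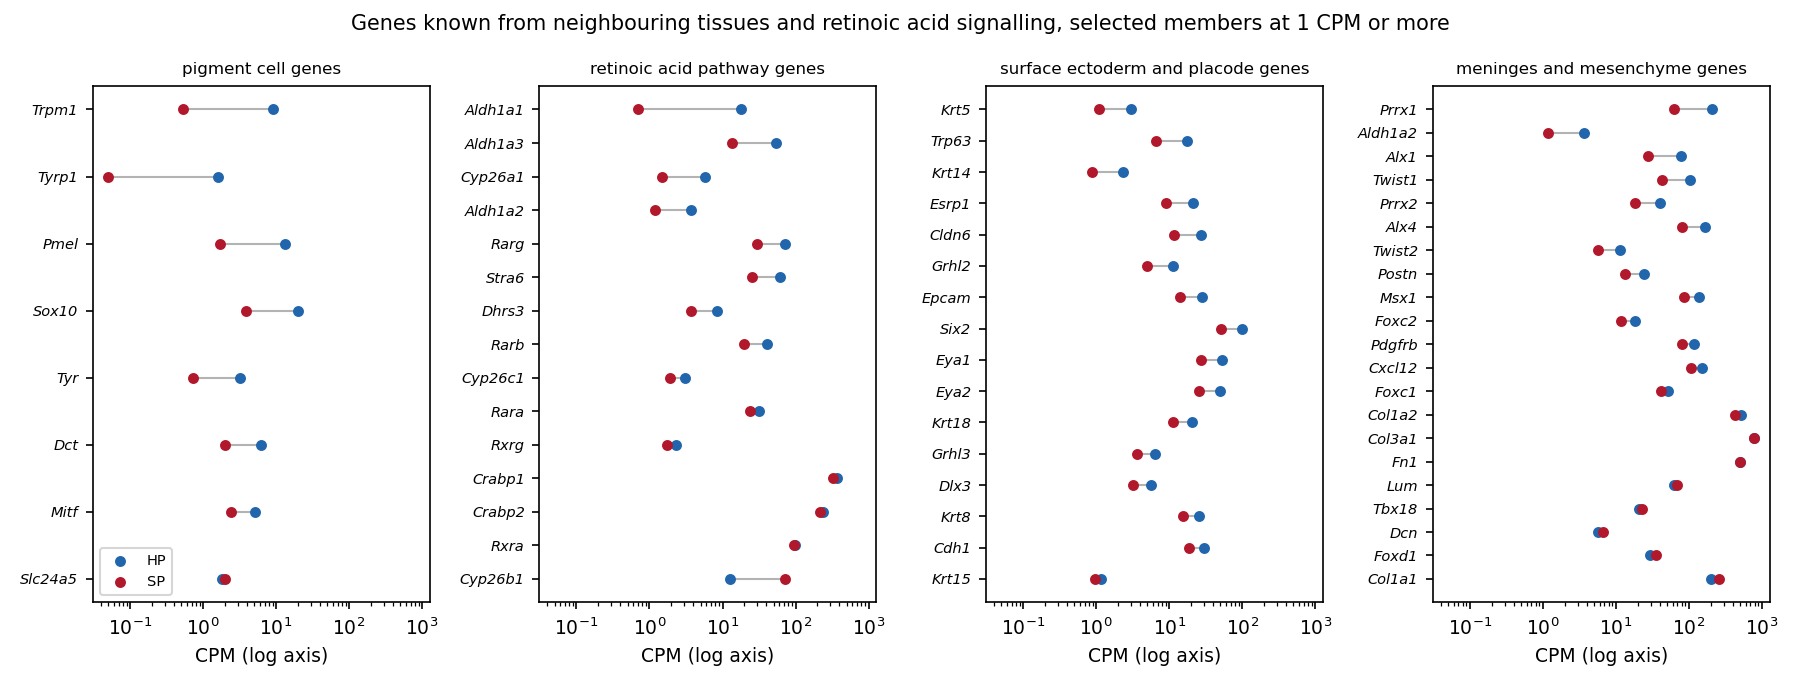
Paired points give the CPM of each gene in HP and SP, on a log axis, for pigment cell, retinoic acid, surface ectoderm and mesenchyme genes, a selection of those at 1 CPM or more. HP lies to the right of SP for all pigment genes shown but Slc24a5, all retinoic acid genes shown but Cyp26b1 and all ectoderm genes shown, and the collagen genes Col1a2 and Col3a1 nearly coincide.

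Blood and vessel genes were nearly the same in both libraries. The embryonic globins Hbb-y and Hba-x stood at 998.5 CPM and 555 CPM in HP and at 1031.5 CPM and 574 CPM in SP, each with a log2 ratio of 0.05. Of 11 erythroid, 12 endothelial and 8 microglia and macrophage genes, 0 were past 2-fold (against 2.96% of all genes), with median log2 ratios of 0.04, 0.00 and 0.27. Pecam1, an adhesion molecule of vessels, stood at 39.2 CPM in HP against 39.0 CPM in SP. All 8 microglia and macrophage genes were higher in SP (against 48.2% of all genes), and of all 15 in the files 13 were higher and 2 lower. Mrc1, a macrophage receptor, had the highest ratio of its list, at 12.3 CPM and 20.6 CPM (log2 ratio 0.74). The lower mesenchyme, ectoderm and pigment genes of SP were therefore not accompanied by lower blood or vessel genes. Their part in the differences of the regional factors was not tested.

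Among the 20 largest ratios in each direction, many belonged to the groups above and a few to none. Msx3, a homeobox gene of the dorsal neural tube from the hindbrain backwards, had 19 counts in HP and 1530 in SP, or 0.546 and 38.5 CPM (log2 ratio 6.01, interval 5.49 to 6.88). Hes3, a repressor active in midbrain and hindbrain progenitors, stood at 0.861 CPM in HP against 7.12 CPM in SP (log2 ratio 2.97), and Trh, the hypothalamic releasing hormone, at 1.55 CPM and 8.46 CPM (log2 ratio 2.41). On the HP side, Barx1, a homeobox gene of facial mesenchyme and stomach, stood at 17.3 CPM in HP against 1.13 CPM in SP (log2 ratio -3.87), and Tbx2, a T-box factor of eye, face and limb, at 95.7 CPM and 25.6 CPM (log2 ratio -1.90). Ddx3y, with 272 counts in HP and 0 in SP, was at least 103-fold lower in SP.

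The young pair, yMSN against yCA, shares no library with the precursors and gives the same regional genes at a later stage. At 5 CPM, 8.6% of genes were at least 2-fold higher in yMSN and 2.1% lower. Emx1 stood at 19.7 CPM in yCA against 9.97 CPM in yMSN, and Fezf2 at 53.3 CPM and 19.2 CPM, both lower in the striatal library as in the precursors. Other pallial factors went the opposite way there, with Emx2 at 19.5 CPM in yCA against 32.1 CPM in yMSN and log2 ratios of 1.58 for both Dmrt3 and Dmrta1. Of all 16 pallial progenitor factors 7 were higher and 9 lower in yMSN, with a median log2 ratio of -0.14. Dlx1 stood at 206 CPM in yCA against 179 CPM in yMSN and Dlx2 at 67.1 CPM and 63.5 CPM, while Dlx5 stood at 26.9 CPM and 38.7 CPM and Dlx6 at 16.9 CPM and 29.1 CPM, so the Dlx genes lay on both sides. Of 64 distinct genes of the diencephalic, midbrain and hindbrain lists, 27 were below 1 CPM in both young libraries and 19 reached 5 CPM in either. Atoh1 stood at 0.0514 CPM in yCA and 0 counts in yMSN, and Dbx1 at 1.59 CPM and 1.04 CPM. Cnpy1 stood at 0.617 CPM in yCA against 17.7 CPM in yMSN, Gata2, a factor of midbrain GABAergic neurons and of blood, at 1.72 CPM and 22.2 CPM, and Tcf7l2 at 131 CPM and 30.6 CPM. Immature neuron genes had a median log2 ratio of -0.59 in the young pair and 0.95 in the precursor pair. Surface ectoderm genes had medians of 2.83 and -0.96, and meninges and mesenchyme genes 1.83 and -0.54. The young libraries also hold transcripts known from tissues outside the brain, whose part in these ratios was not tested.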

How the data were processed

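The data are deposited raw counts of reads per gene symbol, given as a table for each library. Each table lists 34620 symbols, and its 5 summary lines were dropped. The submitters' processing notes name TopHat2 2.0.2, TopHat, Bowtie 1.0.0, HTSeq, edgeR, Bismark and methylKit plus mm9 and NCBIM37 as builds, with no role for any of them. The strand setting of the counting is not given in the sources used here, so sense and antisense reads of overlapping genes cannot be told apart. Reads in no gene made up 5.34% of HP and 5.96% of SP, ambiguous reads 1.39% and 1.38%, and reads aligned to several places 27.3% and 26.1%.

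TMM factors came from edgeR 4.0.16 in R 4.3.3 over all 6 RNA libraries. Log2 ratios use a prior count of 2, and 95% intervals are exact binomial (Clopper-Pearson) intervals on the 2 counts, covering counting error only. A count of 0 allows up to 0.0861 CPM in HP and 0.0755 CPM in SP (3 counts). Genes needed 5 CPM in the higher library, and past 2-fold is a threshold of size, not a test. The steps were tested on simulated counts.

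The libraries and the 37 gene lists were chosen with earlier results of these data known. Named genes were the marker genes Wnt8b, Emx1, En2, Atoh1 and Pmel, the 20 largest ratios in each direction (predicted, clone-named and pseudogene symbols skipped), and up to 10 list members at 1 CPM or more by size of ratio plus those at the median. Other members named with their values (Tubb3, Lin28b and Mki67 among them) were chosen after their values were seen, and a few genes are not reported here. The listed symbols Ndnf, Sox1, Map2, Mcidas and Ahsp were not analysed here. Alternatives covered scaling, prior count, level minimum and the interval rule, with DESeq2 1.42.0 used only for size factors. Promoters came from a RefSeq table of build GRCm38.p6, matched by symbol. The table had no entry for Pmel, Slc45a2, Mlana, Gpr143, Sox10, Aldh1a3 and Crabp2 among the genes named here.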

Additional observations from a re-analysis of the deposited data

Results flagged for a closer look

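The young pair gives a second set of ratios for the same genes, and 31 of the 573 listed or top-ranked genes were at least 2-fold apart in opposite directions, with 5 CPM or more in the higher library of each pair. Of these, 23 were lower in SP and higher in yMSN, and 8 the reverse. In all, 35 of the 573 were past 2-fold in both pairs at that level. Over the 11153 genes at 5 CPM in both pairs, the shares were 0.386% and 0.251%. The 573 include genes ranked by the SP over HP ratio and lists chosen with earlier results known, so their share is not comparable with that of all genes. With 1 library per group the difference between the pairs was not tested, and values are given for most of these genes. Each value is the log2 ratio of yMSN over yCA minus that of SP over HP.

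Head mesenchyme, ectoderm and retinoic acid genes made up most of the set that was lower in SP and higher in yMSN. Among mesenchyme and facial factors the difference was 6.82 for Alx1, 4.36 for Alx4, 3.53 for Prrx1, 3.94 for Prrx2, 3.50 for Twist1, 6.06 for Barx1 and 3.67 for Tbx2. Among ectoderm and placode genes it was 5.27 for the tight junction gene Cldn6, 4.57 for Epcam, 3.995 for the splicing factor gene Esrp1 and 3.80 for Grhl2. Of the retinoic acid genes, Aldh1a3 had 3.86, Rarg 2.94, Stra6 2.75 and Dhrs3 2.28. Cdhr1, a photoreceptor and olfactory cadherin gene, had 5.10, Sox10 3.75, Dmrt3 3.84 and Bmp4 2.74. The Y-linked genes Ddx3y and Kdm5d had 15.90 and 14.88, values that rest on a prior count because SP and yCA had 0 counts.

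Neuronal genes were among those higher in SP and lower in yMSN. The difference was -2.09 for the axonal adhesion gene Cntn2, -2.29 for Nefm, -3.39 for Bhlhe22, -3.34 for Lhx1, -3.73 for Lhx9 and -3.47 for Prox1. Ttr had -7.44, and Mybpc1, a myosin-binding protein gene of muscle, had -4.66.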

How the results depend on the processing

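No paired analysis was possible because HP and SP have 1 library each, and no library could be left out. Counts of genes at least 2-fold higher and lower in SP were 434 and 194 with a minimum of 1 CPM, 116 and 42 with 20 CPM, 1108 and 931 with no filter, and 153 and 60 when the whole counting interval had to lie beyond 2-fold, each a change in which genes were counted. The other scalings and prior counts kept both counts within 1.5 times. List medians moved in 12 of 252 alternatives and in 9 lists. With total counts and with TMM of the pair alone, the median was 0.15 and 0.16 for medial ganglionic eminence genes and 1.72 and 1.73 for hindbrain genes. With 1 CPM it was 0.41 for Cajal-Retzius, 0.25 for hippocampal field, -0.27 for subpallial progenitor, 0.32 for medial ganglionic eminence, 0.54 for synapse, 0.06 for eye and 1.08 for motile cilia genes, with more genes in each list. The pituitary list changed sign, to 0.05. Of 3438 values of single genes under the alternatives, 5 left their interval, all of genes with 0 counts in 1 library at a prior count of 5, and 0 reversed. Counting error is small for genes with many counts but wide for those with few in either library, as for Atoh1 (ratio interval 57.9 to 1742). The spread between animals of a group cannot be read from 1 library.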

Other observations

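Motile cilia genes, which were not described above, had a median log2 ratio of 0.43 over the 5 genes at 5 CPM, all higher in SP (against 48.2% of all genes). Foxj1, the master factor of motile cilia, stood at 9.85 CPM in HP and reached 18.1 CPM in SP (log2 ratio 0.88, interval 0.69 to 1.07). Dynein genes of ciliary axonemes were low, with Dnahc9 at 1.12 CPM in HP against 3.55 CPM in SP. Of 6 pericyte genes 1 was at least 2-fold apart (against 2.96% of all genes), the smooth muscle actin gene Acta2, at 6.20 CPM in HP against 12.7 CPM in SP (log2 ratio 1.03). Lhx3 and Lhx4 are factors of the pituitary and of motor neurons. Lhx3, below 5 CPM in both, had 12 counts in HP and 131 in SP (log2 ratio 3.07, interval 2.41 to 4.25). Lhx4 reached 5 CPM in SP alone, at 1.52 CPM in HP against 7.32 CPM in SP (log2 ratio 2.23). The pituitary factor Pitx1 had a log2 ratio of -0.80. Of 16 muscle genes 2, Des and Pax7, reached 5 CPM. Des stood at 6.49 CPM in HP against 3.83 CPM in SP, Actc1 at 4.77 CPM and 4.43 CPM, and Acta1 at 1.61 CPM and 2.06 CPM.

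Over all genes, 11153 reached 5 CPM in both the precursor and the young pair, and 82 of them were at least 2-fold apart in both. Of these, 43 were lower in SP and higher in yMSN, which is 53.8% of the 80 genes lower in SP and 7.58% of the 567 genes higher in yMSN. A further 28 were higher in SP and lower in yMSN, 14.8% of 189 and 25.2% of 111 genes. Over the same 11153 genes, 5.08% were higher and 0.995% lower in yMSN, and 0.717% were lower and 1.69% higher in SP. The same direction was seen for 8 genes higher and 3 genes lower in the striatal library of both pairs. With 1 library per group these counts carry no test.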
